A study of Mus musculus with 6 samples.

Results

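The Z-disc and actin-binding protein genes described here are 43 listed genes whose products build or attach to the Z-disc, the plate that anchors the thin filaments of neighboring sarcomeres, or bind, cap or cross-link actin. They were found by matching the gene identifiers of the deposited table to mouse symbols, and 43 of 43 were among its 12353 genes. The libraries were made from polyadenylated RNA of the gastrocnemius, a calf muscle, of 3 wild-type mice (Nogo+/+) and 3 Nogo knock-out mice (Nogo-/-), with 1 library per mouse. The knock-out mice lack the Nogo gene, named Rtn4 in the annotation, throughout the body and not only in muscle, and neither group received any other treatment named in the labels. The methods name male sex, an age and, for wild-type mice, the strain C57BL/6J for the Nogo mice of a separate injury experiment. For the sequenced mice these details, the hour at which the muscles were taken and whether the groups were littermates are not given in the sources used here. The library columns carry a number only (Samples 1 to 3 Nogo+/+ and Samples 4 to 6 Nogo-/-), and values below are given in that order.

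The Z-disc is built around alpha-actinin, which cross-links actin filaments of opposite polarity and holds titin. Around this core sit scaffold proteins with PDZ and LIM domains, the filamins and their partners, telethonin, myotilin and the myozenins. Several of these proteins also act in signaling, and the muscle ankyrin repeat proteins are known to respond to stretch and injury. Capping proteins, tropomodulins and leiomodins control the ends of the thin filaments, and vinculin, talin and zyxin join actin to the membrane at costameres and adhesion plaques. Mutations in several of these genes, among them MYOT, LDB3, FLNC, DES and TCAP, cause human myopathies.

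A total of 8 of the 43 genes (18.6%) differed between Nogo-/- and Nogo+/+ muscle, 6 lower and 2 higher, whereas most of the abundant structural genes stayed near their Nogo+/+ level. The genes that fell were Rflnb, Xirp1, Ankrd23, Nexn, Pdlim5 and Pdlim3, and those that rose were Tcap and Fhl3. The call was an adjusted p under 0.05 in limma, a linear model fitted to log2(FPKM + 1) of all genes, where FPKM scale the sequenced fragments of a gene for transcript length and library depth. By the same call, 4.64% of all 12353 genes changed, 2.75% fell and 1.89% rose, against 14.0% and 4.65% of the 43. Among genes with a mean FPKM of at least 10, which include 41 of the 43, 6.18% of all genes changed and 8 (19.5%) of the 41. A change over 1.3-fold was met by 5 of the 43 (11.6%) and by 3.2% of all genes. The 43 were listed with earlier results of these data known, so setting them beside all genes is description only. The share of changed genes that were higher was 40.7% over all genes with quantile normalization and 56.3% without it. Of the 8 calls, 7 stood without it, Pdlim3 being lost and Lmod2 gained. Since whole muscle was sequenced, fewer cells of a type and less RNA per cell cannot be told apart.

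The 43 genes leaned downward as a list. The log2 fold change was below 0 in 31 (72.1%) and above 0 in 12, compared with 52.1% of all genes below 0. Without quantile normalization, 6 of these 31 were above 0, so the lean was weaker. The median log2 fold change was -0.11 for the 43 and -0.0067 for all genes, and -0.052 and 0.034 without quantile normalization. An unadjusted p under 0.05 in limma was reached by 21 of the 43 genes and by 2529 of all 12353 genes (20.5%). In 14 of the 43 (32.6%) every Nogo-/- library lay below every Nogo+/+ library, as in 10.0% of all genes. In 5 (11.6%) every Nogo-/- library lay above, as in 15.9% of all genes. The remaining 24 overlapped. No set test of the calls or fold changes was made, since the list was chosen with results of these data known.

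**Figure D1:**
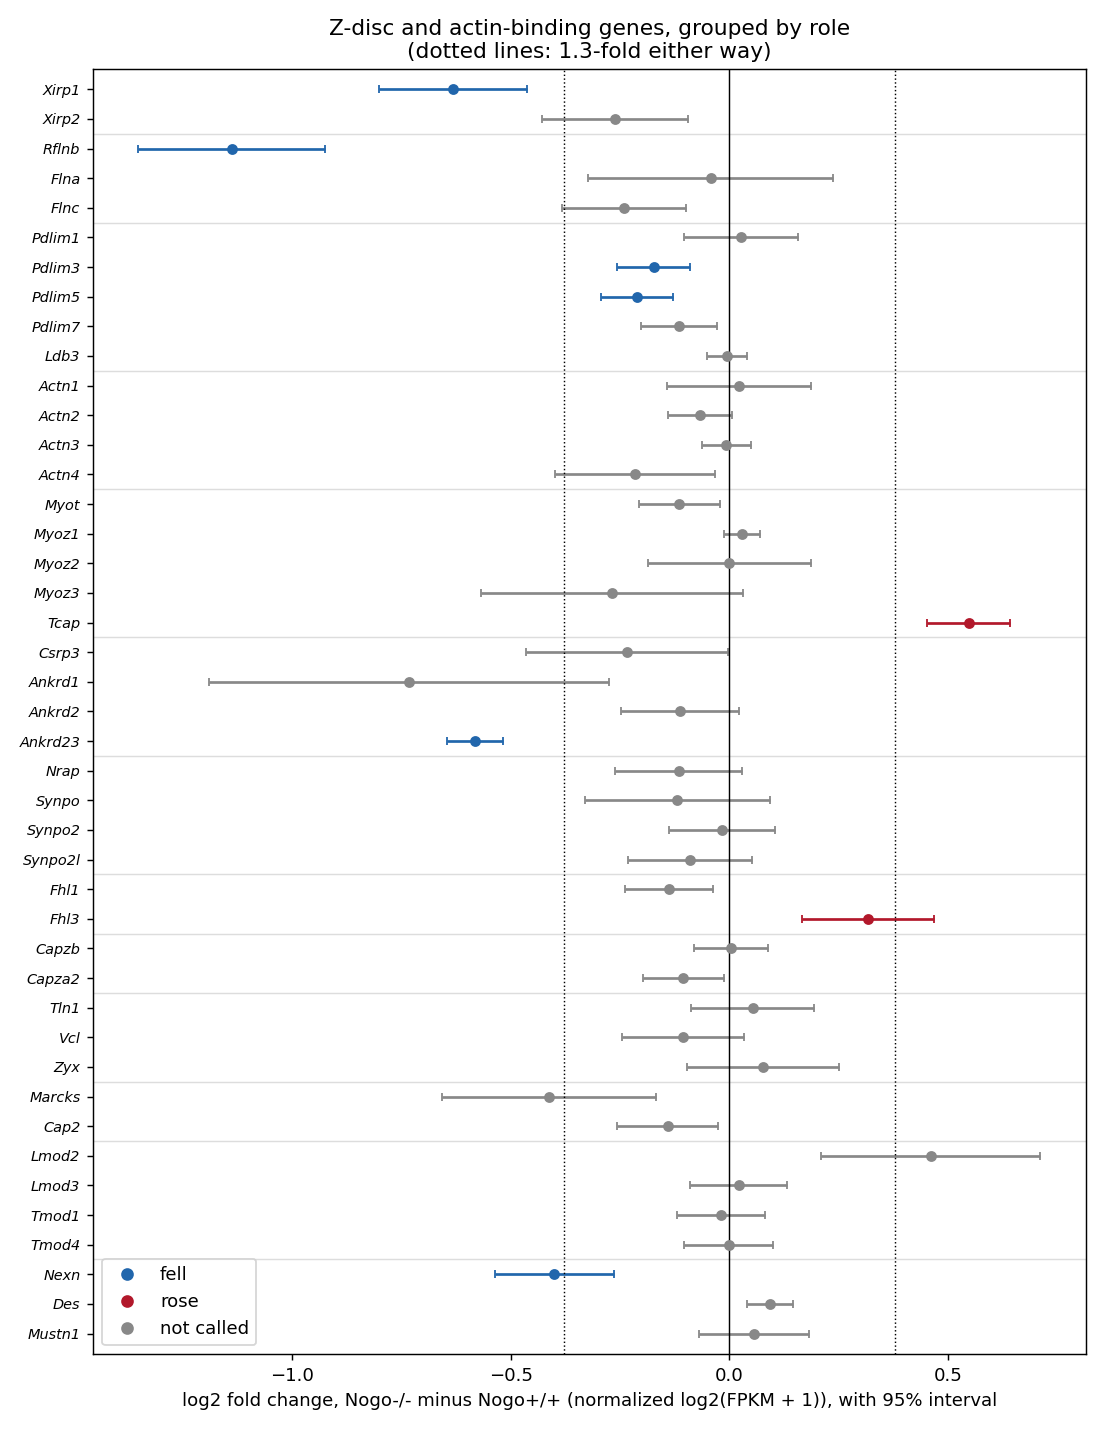
Log2 fold change (Nogo-/- minus Nogo+/+, normalized log2(FPKM + 1), x axis) of each of the 43 genes (y axis, grouped by role), with 95% intervals from limma (n = 3 libraries per group). Blue genes fell, red genes rose and grey genes did not pass, and the dotted lines mark 1.3-fold, which the intervals of 27 of the 35 genes that did not pass stay within.

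Rtn4 itself stood at 414, 429 and 425 FPKM in Nogo+/+ muscle and at 0.423, 0.312 and 0.368 FPKM in Nogo-/- muscle, as the labels state. From single-transcript genes the libraries were estimated at 13490000 to 14470000 fragments, and log2(FPKM + 1) correlated between libraries of a group with r of 0.984 to 0.995 across genes. Muscle fiber markers were abundant in all 6 libraries. Sample 6 stood apart on the leading principal component, at 25.9 against 6.11 and 7.22 for the other Nogo-/- libraries and -14.2 to -12.5 for Nogo+/+. In this library the summed FPKM of 6 of 6 skin epithelium markers was 173.6, against 2.89 to 11.8 in the other 5. The 8 calls were therefore also made without it, and 7 of 8 stood, all but Pdlim3.

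Promoter sequences from RefSeq (GRCm38.p6) were found for 33 of the 43 genes, in 40 windows of 300 bases around a transcription start. No entry matched Xirp1, Actn3, Myot, Myoz1, Myoz3, Tcap, Synpo, Marcks, Lmod3 or Nexn. The 250 bases before the start are shown for genes that fell (Rflnb, Ankrd23 and Pdlim3) and rose (Fhl3), and for a pair of genes, Ldb3 and Vcl, that did not pass and whose windows hold the box bound by serum response factor, a regulator of actin genes. Capitals mark E-boxes (CANNTG, bound by myogenic factors and others) and CArG boxes (the serum response factor site), searched on both strands. The windows are chr11:76027783-76028032 for Rflnb, chr1:36535740-36535989 for Ankrd23 and chr14:34588682-34588931 for Ldb3 (minus strand), and chr8:45885237-45885486 for Pdlim3, chr4:124700449-124700698 for Fhl3 and chr14:20929148-20929397 for Vcl (plus strand).
Rflnb: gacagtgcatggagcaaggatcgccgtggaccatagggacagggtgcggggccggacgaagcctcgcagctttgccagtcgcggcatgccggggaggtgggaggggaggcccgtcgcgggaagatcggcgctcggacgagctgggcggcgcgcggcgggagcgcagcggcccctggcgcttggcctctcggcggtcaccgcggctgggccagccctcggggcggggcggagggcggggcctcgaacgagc
Ankrd23: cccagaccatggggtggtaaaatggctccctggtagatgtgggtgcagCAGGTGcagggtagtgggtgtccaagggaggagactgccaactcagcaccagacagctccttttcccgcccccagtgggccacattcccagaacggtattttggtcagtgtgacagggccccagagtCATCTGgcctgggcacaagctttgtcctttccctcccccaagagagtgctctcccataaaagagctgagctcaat
Pdlim3: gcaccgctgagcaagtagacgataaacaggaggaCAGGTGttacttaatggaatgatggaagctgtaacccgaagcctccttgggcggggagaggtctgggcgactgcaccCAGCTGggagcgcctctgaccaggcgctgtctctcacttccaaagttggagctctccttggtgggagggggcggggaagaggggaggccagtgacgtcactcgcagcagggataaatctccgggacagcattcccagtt
Fhl3: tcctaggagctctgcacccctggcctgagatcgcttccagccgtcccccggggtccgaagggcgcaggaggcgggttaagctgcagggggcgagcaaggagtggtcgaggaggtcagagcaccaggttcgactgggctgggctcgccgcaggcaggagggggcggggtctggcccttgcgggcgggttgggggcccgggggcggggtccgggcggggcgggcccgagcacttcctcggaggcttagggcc
Ldb3: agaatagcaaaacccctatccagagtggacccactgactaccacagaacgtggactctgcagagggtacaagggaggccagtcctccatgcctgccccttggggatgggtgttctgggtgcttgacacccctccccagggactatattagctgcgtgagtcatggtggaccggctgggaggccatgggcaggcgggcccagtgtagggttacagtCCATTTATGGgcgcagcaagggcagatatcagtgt
Vcl: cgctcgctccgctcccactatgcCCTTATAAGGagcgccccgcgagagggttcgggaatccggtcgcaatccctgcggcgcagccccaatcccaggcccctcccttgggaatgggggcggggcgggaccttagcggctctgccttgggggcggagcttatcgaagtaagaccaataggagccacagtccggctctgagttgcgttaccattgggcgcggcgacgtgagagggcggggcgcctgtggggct

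The Ankrd23 window holds E-boxes at positions -202 and -75 from the start, and a second annotated start of that gene has no E-box, CArG box or MEF2 site in its window. Pdlim3 holds E-boxes at -216 and -139, and the Rflnb and Fhl3 windows hold none of these motifs. The CArG box CCATTTATGG lies at -35 in Ldb3, and CCTTATAAGG lies at -227 in Vcl. Over all 40 windows, a CArG box was found in 4 (10.0%), from Fhl1, Ldb3 and Vcl, with 2 overlapping Ldb3 windows holding the same site, against 1.63% of all 32851 promoter windows. A MEF2 site was found in 5 (12.5%), from Myoz2, Synpo2, Synpo2l and Xirp2, against 3.19%, and an E-box in 25 (62.5%), against 72.3%. A match is a string of letters only and says nothing of binding in these muscles. No window of Rflnb, Ankrd23, Pdlim5, Pdlim3 or Fhl3, the changed genes with a sequence, held a CArG box or a MEF2 site.

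Among the filamin and Xin genes, 2 of 5 fell, and both encode partners of the actin network. Rflnb encodes refilin B, which binds filamin and bundles actin around the nucleus. It lies on chromosome 11 at chr11:76019194-76027782 (minus strand, ENSMUSG00000020846). Its FPKM were 19.6, 18.2 and 17.5 in Nogo+/+ and 9.68, 7.69 and 7.11 in Nogo-/- libraries. Every Nogo-/- library was below the lowest Nogo+/+ library by a wide margin, on 344 to 472 against 860 to 953 estimated fragments. The log2 fold change was -1.14 (SE 0.094), 2.2-fold lower, with an adjusted p of 4.57e-04 in limma. This was the largest change among the 43 genes. The filamins themselves, which cross-link actin into networks and of which Flnc is the muscle form, did not pass. Flnc stood at 92.2, 95.5 and 109 FPKM in Nogo+/+ and 83.2, 89.1 and 84.1 FPKM in Nogo-/-, lower without overlap, with a log2 fold change of -0.24 and an adjusted p of 0.0697. Flna, the form found in most cell types, ranged from 39 to 48.5 and from 35.7 to 50.8 FPKM, and its groups overlapped (log2 fold change -0.043, 95% interval -0.32 to 0.24).

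Xirp1 encodes Xin, an actin-binding repeat protein of myotendinous junctions and of remodeling muscle (chr9:120013755-120023598, minus strand, ENSMUSG00000079243). It was measured at 37.4, 36.9 and 41.2 FPKM in Nogo+/+ and 23.6, 27.8 and 25.1 FPKM in Nogo-/- muscle. The groups were far apart, and the Nogo-/- mean was 66.3% of Nogo+/+ (log2 fold change -0.63, SE 0.074, adjusted p 0.00285). Its larger relative Xirp2, which binds alpha-actinin as well as actin, was at 131, 146 and 142 FPKM and at 108, 123 and 129 FPKM. The Xirp2 groups did not overlap either, but the difference (85.9% of Nogo+/+, log2 fold change -0.26) did not pass (adjusted p 0.0894). Xirp1 made up 21.6% ± 1.3 of the summed FPKM of the pair in Nogo+/+ and 17.6% ± 1.1 in Nogo-/- libraries (SD, n = 3), with no overlap.

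The muscle ankyrin repeat proteins share a region that binds titin and can enter the nucleus. Ankrd23 was by far the most abundant of the 3 (chr1:36530188-36536883, minus strand, ENSMUSG00000067653). It stood at 1159, 1159 and 1114 FPKM in Nogo+/+ and 725, 764 and 764 FPKM in Nogo-/- libraries. The libraries of each group lay close together and the groups far apart, so that Ankrd23 had the smallest p of the 43 genes (65.6% of Nogo+/+, log2 fold change -0.58, SE 0.028, adjusted p 2.36e-05). Ankrd2, which is enriched in slow fibers, was at 156, 149 and 170 FPKM and at 162, 150 and 140 FPKM, overlapping (log2 fold change -0.11, adjusted p 0.327). Ankrd1, the form induced by injury and denervation, was low in all libraries, at 5.25, 7.08 and 9.45 FPKM and at 3.51, 3.56 and 5.06 FPKM. Its groups did not overlap and its fold change was large (-0.73), but the libraries of a group were spread widely (SE 0.20) and it did not pass (adjusted p 0.084). The 3 genes together summed to 69.2% of the Nogo+/+ value, 1310 ± 14 against 906 ± 14 FPKM (SD, n = 3). Within this sum the share of Ankrd23 went from 87.4% ± 1.1 to 82.9% ± 1.3 and that of Ankrd2 from 12.1% ± 0.94 to 16.7% ± 1.4, without overlap. Csrp3, the muscle LIM protein, a Z-disc protein that is enriched in slow fibers, overlapped between the groups (147 to 196 FPKM against 130 to 160 FPKM, log2 fold change -0.23, adjusted p 0.239).

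**Figure D2:**
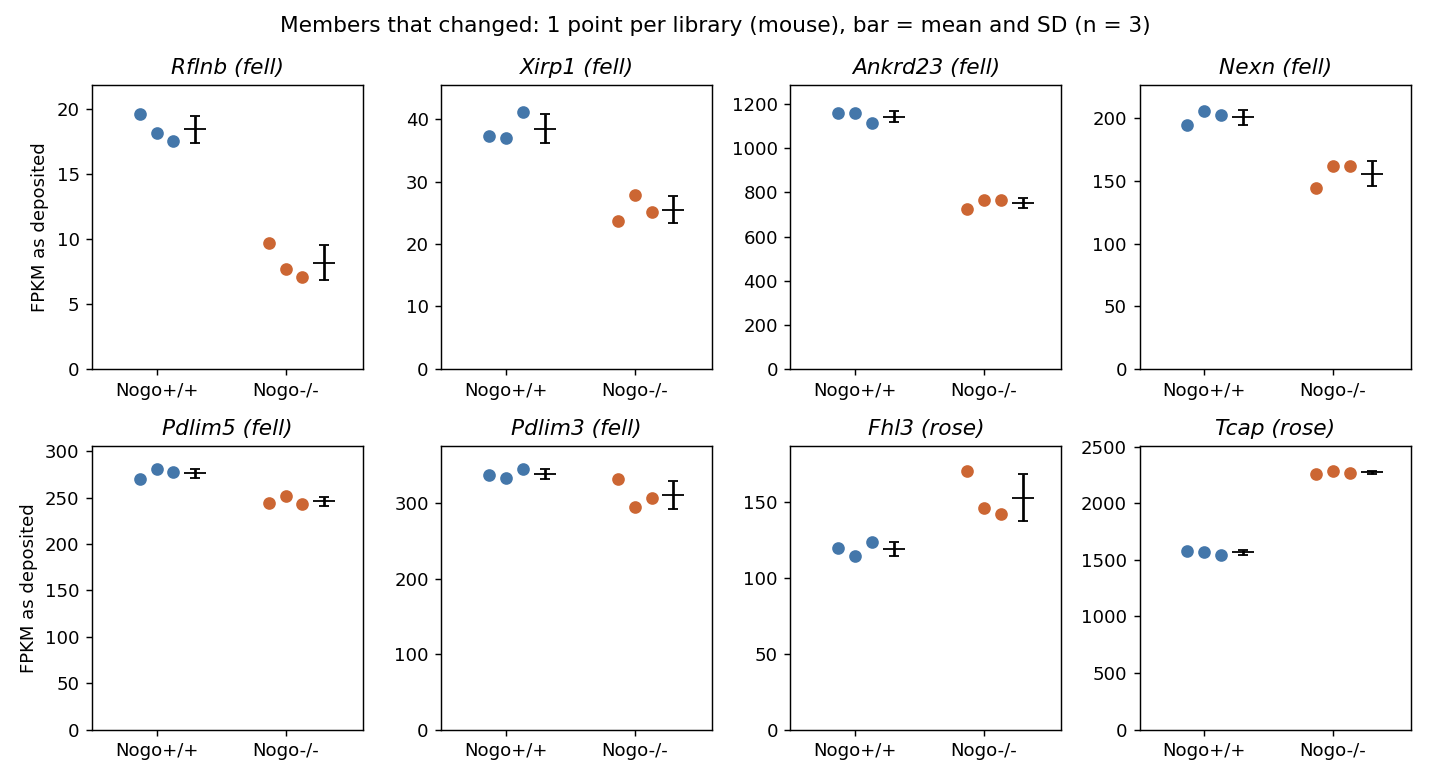
FPKM as deposited (y axis, from 0) of the 8 genes that changed, in the 3 Nogo+/+ and 3 Nogo-/- libraries (x axis); each point is 1 library, and the bar gives the mean and SD. Nogo-/- points lie below all Nogo+/+ points for the 6 genes that fell, closest for Pdlim3, and above them for Fhl3 and Tcap.

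The PDZ-LIM genes encode scaffolds of the Z-disc and the cytoskeleton, most of which bind alpha-actinin, while their LIM domains bind kinases and other partners. Of 5, 2 fell, by little. Pdlim5 (ENH) was at 270, 281 and 277 FPKM in Nogo+/+ and at 244, 251 and 243 FPKM in Nogo-/- libraries. Its groups were separate, with a log2 fold change of -0.21 (SE 0.036, adjusted p 0.0157), 1.16-fold lower. Pdlim3 (ALP) was at 337, 334 and 346 FPKM and at 332, 295 and 307 FPKM, with Sample 4 close to the Nogo+/+ range. Its log2 fold change was -0.17 (SE 0.036, adjusted p 0.0365), and the call was lost without quantile normalization (adjusted p 0.191), without the mean-variance trend (0.17) and on leaving out any library but Sample 4 (0.0765 to 0.145). The Pdlim5 call was lost without the trend (adjusted p 0.109) and without Sample 2 (0.0739) or Sample 3 (0.0668).

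Ldb3 (ZASP or Cypher), the most abundant of the family, was at 892, 885 and 889 FPKM in Nogo+/+ and at 840, 839 and 855 FPKM in Nogo-/- libraries. These values did not overlap, yet the log2 fold change was -0.0060 after quantile normalization and -0.073 without it (adjusted p 0.908 and 0.169), since the former replaces a value by that of its rank and few genes are as abundant. Pdlim7 (enigma) overlapped, with 313 to 331 FPKM against 300 to 331 FPKM (log2 fold change -0.12, adjusted p 0.142), and passed only without Sample 6 (adjusted p 0.0422). Pdlim1 (CLP36) was the least abundant, at 52.4 to 56.8 FPKM and 54.3 to 60.7 FPKM (log2 fold change 0.026, 95% interval -0.10 to 0.16). The 5 genes summed to 94.2% of the Nogo+/+ value.

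The alpha-actinins, the cross-linkers at the core of the Z-disc, summed to 100.1% of the Nogo+/+ value, 2557 ± 33 FPKM in Nogo+/+ against 2559 ± 40 FPKM in Nogo-/- libraries (SD, n = 3). None of the 4 passed. Actn3, the fast-fiber form and the most abundant of the 43 genes, was at 2087, 2086 and 2120 FPKM and at 2082, 2097 and 2161 FPKM. The groups overlapped, and the 95% interval of the log2 fold change ran from -0.063 to 0.049. Actn2, the form present in all fibers, was at 444, 407 and 437 FPKM and at 414, 424 and 416 FPKM, also overlapping (log2 fold change -0.068, interval -0.14 to 0.0052). The nonmuscle forms were much lower. Actn4 was at 22.7 to 28.7 FPKM against 21.3 to 23.5 FPKM, and its interval (-0.40 to -0.033) reached past 1.3-fold, while Actn1 was at 4.96 to 5.43 FPKM and 4.94 to 5.96 FPKM.

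Tcap had the largest rise of the 43 genes. It encodes telethonin, which caps the ends of titin at the Z-disc, and lies on chromosome 11 (chr11:98383811-98384953, plus strand, ENSMUSG00000007877). It stood at 1581, 1570 and 1545 FPKM in Nogo+/+ and at 2262, 2286 and 2268 FPKM in Nogo-/- libraries. Each group was tight and the groups were far apart (20077 to 21203 against 29613 to 31331 estimated fragments), with a Nogo-/- mean of 145% of Nogo+/+ (log2 fold change 0.55, SE 0.041, adjusted p 3.01e-04 in limma, and 0.54 without quantile normalization). None of the myotilin and myozenin genes passed. Myoz1, the fast-fiber calsarcin, which binds calcineurin, alpha-actinin and telethonin, was at 1314, 1351 and 1359 FPKM and at 1415, 1373 and 1415 FPKM. Its groups did not overlap, but the difference was small (104.4% of Nogo+/+, log2 fold change 0.029, adjusted p 0.406). Myot, which binds alpha-actinin and filamin C, was at 459, 462 and 465 FPKM and at 417, 456 and 445 FPKM, lower without overlap (log2 fold change -0.11, adjusted p 0.162). Myoz2, the slow-fiber calsarcin, overlapped at 154 to 191 FPKM and 162 to 186 FPKM (log2 fold change -0.00050, interval -0.19 to 0.19), and so did Myoz3 at 43.3 to 54.5 FPKM and 34.8 to 47.4 FPKM (interval -0.57 to 0.031).

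Rflnb and Tcap lie on the same chromosome as Rtn4, 46.3 and 68.6 Mb from it, and moved in opposite directions. On chromosome 11, 57 of 1055 genes changed (5.40%), against 4.64% overall. The part of this position in either difference was not tested.

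**Figure D3:**
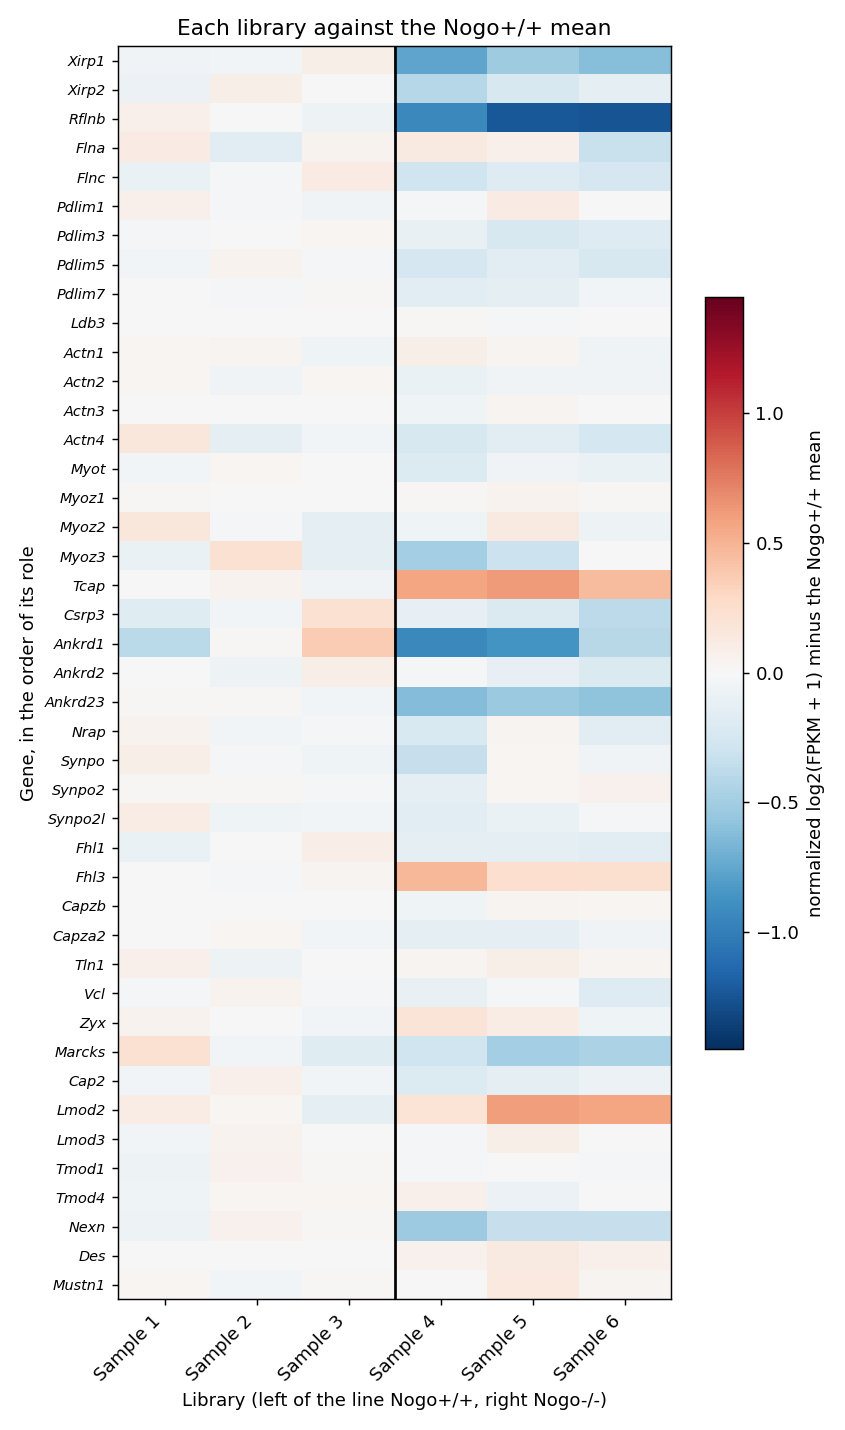
Normalized log2(FPKM + 1) of each of the 43 genes (rows, in the order of their roles) in each of the 6 libraries (columns), minus the mean of the 3 Nogo+/+ libraries; red is higher and blue lower. Rflnb (-0.94, -1.22 and -1.26), Xirp1 and Ankrd23 are lower and Tcap is higher in all 3 Nogo-/- libraries, while most other genes stay close to 0.

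Nexn encodes nexilin, an actin-binding protein that stabilizes the Z-disc under load. It was at 194, 206 and 202 FPKM in Nogo+/+ and at 144, 162 and 162 FPKM in Nogo-/- libraries. The groups did not overlap (77.6% of Nogo+/+, log2 fold change -0.40, SE 0.060, adjusted p 0.00937). The adjusted p was 0.0589 without Sample 2 and 0.0531 without Sample 3. Des, the intermediate filament protein that links Z-discs sideways, was at 846, 838 and 846 FPKM and at 832, 865 and 855 FPKM, overlapping, at 101.0% of Nogo+/+. Its log2 fold change was 0.092 (adjusted p 0.0657) after quantile normalization, 0.014 (0.837) without it, and it passed with sample weights (0.0428) and without Sample 4 (0.0439). Mustn1, a small nuclear protein of muscle and tendon, was at 45.7, 43 and 45.6 FPKM and at 46.3, 51.4 and 47.0 FPKM, higher without overlap (log2 fold change 0.056, adjusted p 0.631).

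Of the FHL genes, which encode proteins built of LIM domains, Fhl3 rose and Fhl1 did not pass. Fhl3 was at 119, 114 and 123 FPKM in Nogo+/+ and at 170, 146 and 142 FPKM in Nogo-/- libraries, with Sample 4 the highest. It was higher in all 3 Nogo-/- libraries (128.4% of Nogo+/+, log2 fold change 0.32, SE 0.066, adjusted p 0.0352). The call was lost without the mean-variance trend (adjusted p 0.0976) and without Sample 1 (0.0999), Sample 2 (0.14) or Sample 3 (0.103). Fhl1, the most abundant FHL gene of muscle, was at 535, 560 and 586 FPKM and at 537, 519 and 517 FPKM, with overlap and no call (log2 fold change -0.14, adjusted p 0.125). Fhl1 made up 82.5% ± 0.65 of the summed FPKM of both genes in Nogo+/+ and 77.5% ± 1.4 in Nogo-/- libraries (SD, n = 3), while the sum itself was 99.6% of Nogo+/+.

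At the thin filament ends no gene passed. Lmod2, a leiomodin that nucleates actin and lengthens thin filaments, came nearest, at 69.9, 65.1 and 59.7 FPKM in Nogo+/+ and 77.4, 103 and 97.4 FPKM in Nogo-/- libraries. It was higher without overlap, at 142.7% of Nogo+/+, with a log2 fold change of 0.46 (SE 0.11) and an adjusted p of 0.0555. It passed without quantile normalization (0.0384), with a pseudocount of 0.1 (0.0489), with sample weights (0.0287) and without Sample 4 (0.0106). Lmod3, the leiomodin of skeletal muscle whose loss causes nemaline myopathy, was at 71.9 to 74.7 FPKM and 74.4 to 81.3 FPKM, overlapping (log2 fold change 0.021, interval -0.089 to 0.13). Lmod2 made up 46.8% ± 2.4 of the summed FPKM of both leiomodins in Nogo+/+ and 54.5% ± 3.1 in Nogo-/- libraries (SD, n = 3), without overlap. The tropomodulins, which cap the pointed ends, overlapped, with Tmod4 at 371 to 398 FPKM and 375 to 418 FPKM (interval -0.10 to 0.10) and Tmod1 at 111 to 122 FPKM and 118 to 122 FPKM (interval -0.12 to 0.081). The barbed-end capping proteins differed little. Capzb was at 198 to 203 FPKM and 195 to 209 FPKM, overlapping, and Capza2 at 134.5 to 137.7 FPKM and 127.0 to 133.7 FPKM, lower without overlap but by a narrow gap (log2 fold change -0.11, adjusted p 0.19).

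Nrap and the synaptopodins, scaffolds that bind actin and alpha-actinin, showed no change that passed, and all 4 overlapped. Nrap, found in myofibril assembly and at myotendinous junctions, was at 261, 244 and 252 FPKM in Nogo+/+ and 225, 263 and 232 FPKM in Nogo-/- libraries (log2 fold change -0.12, adjusted p 0.359). Synpo2 (myopodin) stood at 100.6% of Nogo+/+, Synpo2l at 96.3% and Synpo at 94.8%. The adhesion plaque genes, which tie actin to integrins, were low and overlapped as well. Vcl was at 24.1, 25.0 and 24.1 FPKM and 23.9, 25.1 and 21.6 FPKM, Tln1 at 13 to 14.8 FPKM and 14.4 to 15.5 FPKM, and Zyx at 13.8 to 14.7 FPKM and 13.5 to 17.0 FPKM. These 3 genes had adjusted p of 0.382, 0.685 and 0.632. Marcks, a substrate of protein kinase C that binds actin at the membrane, was lower without overlap, at 17.4, 14.2 and 13 FPKM against 12.5, 10.6 and 10.5 FPKM (75.5% of Nogo+/+, log2 fold change -0.41, adjusted p 0.0716). Cap2, a cyclase-associated protein that aids actin turnover, was at 94.6, 101 and 95.6 FPKM against 87.8, 90.2 and 92.3 FPKM (log2 fold change -0.14, adjusted p 0.163).

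Of the 24 genes with a mean FPKM of at least 100, 4 fell, 2 rose and 18 did not pass, and for 16 of these 18 the 95% interval stayed within 1.3-fold either way. Their Nogo-/- means ran from 85.9% (Xirp2) to 104.4% (Myoz1) of Nogo+/+. Of the 19 less abundant genes, 2 fell and 17 did not pass, 11 of these with an interval within 1.3-fold. The 8 genes that did not pass and whose interval reached beyond 1.3-fold were Xirp2, Flnc, Actn4, Myoz3, Csrp3, Ankrd1, Marcks and Lmod2, so that for these a change of that size was not resolved with 3 mice per group. Summed over all 43 genes, the libraries held 13272, 13251 and 13388 FPKM in Nogo+/+ and 13318, 13480 and 13494 FPKM in Nogo-/-. The groups overlapped, with a Nogo-/- mean of 101.0% of Nogo+/+. A two-sided exact permutation test of these sums gave p = 0.2. Its smallest p for 3 against 3 libraries is 0.1, so the sum could not have passed. The 43 genes held 3.21% to 3.33% of all FPKM of a library. The sum holds changes in both directions, so its level does not mean that the genes were level. The mean of Tcap went from 1565 to 2272 FPKM and that of Ankrd23 from 1144 to 751 FPKM.

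Shares within a family compare levels per length inside a library. Of 24 shares in 11 families, 7 did not overlap between the groups, those of Ankrd23, Ankrd2, Xirp1, Fhl1, Lmod2, Capzb and Pdlim1. Among the FPKM of all genes, 10.0% did not overlap with Nogo-/- lower and 15.9% with Nogo-/- higher. With these rates added, 7 of 24 shares without overlap is close to the rate of all genes. The count alone therefore does not set these families apart. Shares of a family also depend on one another. The Ankrd2 share was larger in Nogo-/- libraries although Ankrd2 itself was at 95.2% of Nogo+/+. For 3 against 3 libraries the smallest exact permutation p is 0.1, so that no share could pass. The 7 shares without overlap reached it (0.343 after Benjamini-Hochberg adjustment over the 24). The Capzb share of the capping proteins went from 59.5% ± 0.34 to 61.1% ± 0.74 and the Pdlim1 share of the PDZ-LIM genes from 2.87% ± 0.13 to 3.19% ± 0.25 (SD, n = 3).

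**Figure D4:**
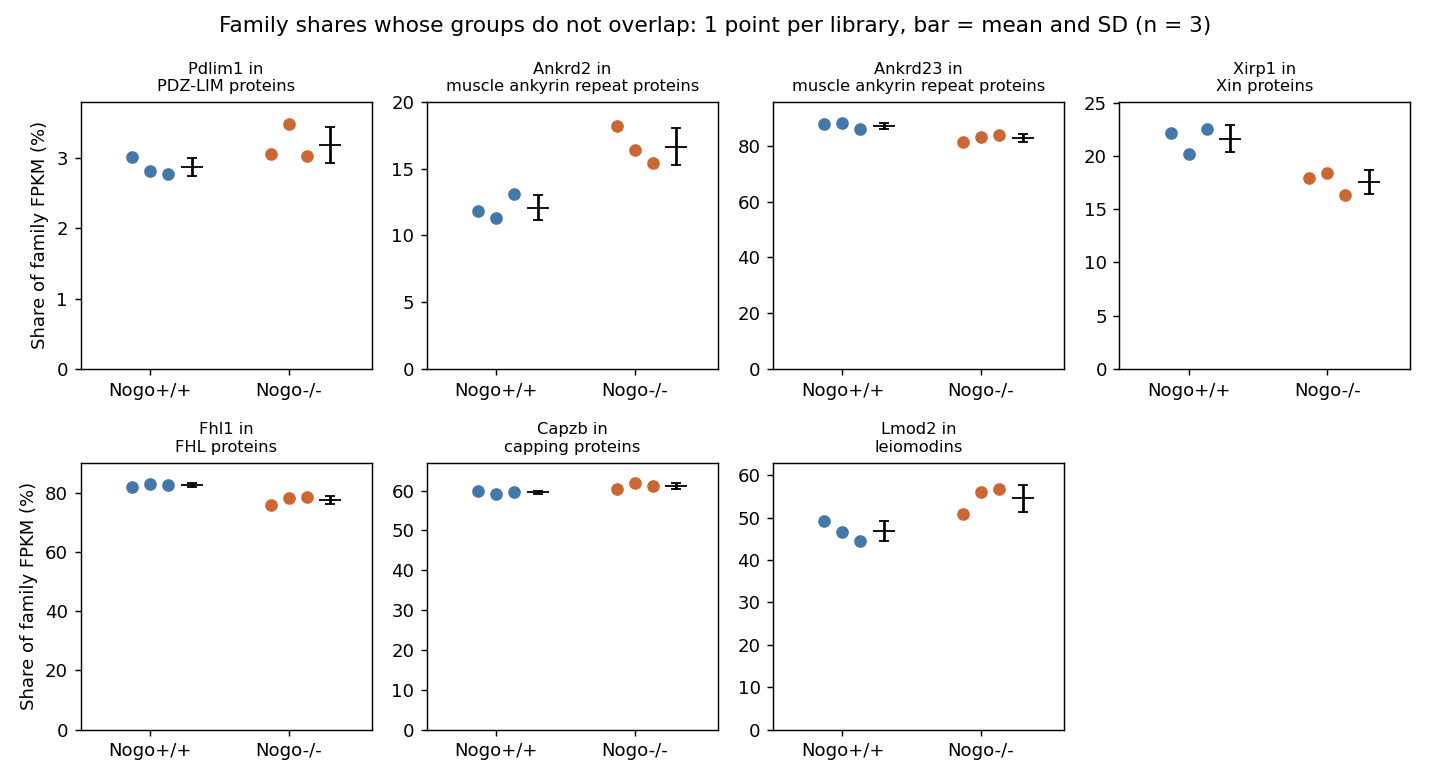
Share of a gene in the summed FPKM of its family (percent, y axis, from 0) in the 3 Nogo+/+ and 3 Nogo-/- libraries (x axis), for the 7 shares whose groups did not overlap; each point is 1 library, and the bar gives the mean and SD. Ankrd23, Xirp1 and Fhl1 took smaller shares in Nogo-/- libraries, and Ankrd2, Lmod2, Capzb and Pdlim1 larger ones. No share could pass the exact permutation test with 3 libraries per group.

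Genes of neighboring processes that are not among the 43 were read from the same fit. By the same call, 4.64% of all 12353 genes changed, 2.75% fell and 1.89% rose. The lists are short and no set test was made, so a single call says little about a list. Of 19 family relatives measured, 1 fell, the ankyrin repeat gene Ankrd33b (7.74, 7.58 and 7.26 FPKM against 4.83, 5.73 and 4.19 FPKM, log2 fold change -0.57, adjusted p 0.0112). Of 24 costamere and focal adhesion genes, 1 fell, Dag1, which encodes dystroglycan (log2 fold change -0.23, adjusted p 0.0284). Of 23 genes of actin filament turnover, 2 fell, namely Ssh2, the slingshot phosphatase that activates cofilin (-0.51, 0.00396), and Wdr1, a cofactor of cofilin (-0.25, 0.0334). Of 15 genes of Z-disc chaperones and turnover, 3 fell. They were the nemaline myopathy gene Kbtbd13 (12.4, 12.9 and 13.1 FPKM against 8.95, 7.56 and 8.45 FPKM, log2 fold change -0.61, adjusted p 0.00377), the muscle F-box gene Fbxo40 (-0.26, 0.016) and the small heat shock protein gene Hspb8 (-0.20, 0.022). None of these genes rose, although without quantile normalization the costamere genes Sorbs3 (log2 fold change 0.42, adjusted p 0.0384) and Sgca (0.22, 0.0399) passed, both named after their values were seen. Among 6 genes of serum response factor and its cofactors none passed in limma, 1 had an unadjusted p under 0.05 (Srf, 0.0416), and Srf was at 43.5, 46.9 and 46.0 FPKM against 41.3, 42.1 and 44.4 FPKM. Rflna, Nebl and Myocd were on these lists but matched no gene of the table, so they could not be read. Kbtbd13 and Ssh2 passed under the 5 other settings and without any 1 library. The Ankrd33b call was lost without Sample 2 (adjusted p 0.0648) or Sample 3 (0.0507), and the Fbxo40 call without the trend (0.0667) and without Sample 1 (0.057), Sample 2 (0.0828) or Sample 3 (0.0865). The Hspb8 call was lost without quantile normalization (0.113), the trend (0.127), Sample 2 (0.112), Sample 3 (0.103), Sample 5 (0.0527) or Sample 6 (0.0514). Of the calls with 1 library left out, that of Dag1 stood only without Sample 6 (0.0312; 0.0634 to 0.128 without another), and that of Wdr1 only without Sample 5 (0.0478; 0.0739 to 0.125 without another). Without the trend both were lost (Dag1 0.0798, Wdr1 0.0586), and Wdr1 also without quantile normalization (0.0771).

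Several of the 43 genes, such as Flna, Actn1, Actn4, Tln1 and Zyx, are also active in vessels and connective tissue. Of 7 endothelial markers, 5 fell (Kdr, Pecam1, Cdh5, Tek and Emcn), with a summed level of 120 to 133 FPKM in Nogo+/+ and 88.5 to 105 FPKM in Nogo-/- libraries. Of 10 smooth muscle and pericyte markers, 2 fell (Acta2 and Pdgfrb), with sums of 323 to 336 FPKM and 256 to 306 FPKM. The log2 fold change was below 0 in 9 of these and above 0 in 1, and 8 had an unadjusted p under 0.05 in limma. Adipocyte markers had sums of 270 to 295 FPKM and 297 to 478 FPKM, with none of 5 called. All 5 had a log2 fold change above 0, and 4 had an unadjusted p under 0.05 in limma. No fibroblast (of 7), macrophage (of 5), Schwann cell (of 4) or skin epithelium (of 6) marker passed. Of 10 muscle fiber markers, 1 passed, the myoglobin gene Mb, whose deposited values overlapped (1739, 1761 and 1715 FPKM against 1734, 1645 and 1627 FPKM). Its log2 fold change was -0.15 (adjusted p 0.00562) after quantile normalization and -0.060 (0.33) without it. For the very abundant Acta1, Ckm, Myh4 and Tnnt3, this normalization left no difference between the groups, so they could not be called. Without it their log2 fold changes were -0.072, -0.039, -0.13 and -0.034, and none passed in limma (adjusted p 0.235, 0.485, 0.159 and 0.514). Of 3 satellite cell and regenerating fiber markers measured, 1 fell (Myod1). Among these marker calls, Pecam1 (adjusted p 0.0549), Tek (0.0804) and Pdgfrb (0.112) were also lost without quantile normalization. Kdr and Mb passed with any 1 library left out, and each of the other called markers in only 1 or 2 of the 6 such fits. The part of these cells in the differences of the 43 genes was not tested.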

How the data were processed

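The authors sequenced stranded mRNA libraries of 6 gastrocnemius muscles (3 Nogo+/+, 3 Nogo-/-) on a HiSeq 2500. By the study's methods and the processing notes of the submitters, reads were processed with CASAVA 1.8.2 and cutadapt 1.4.2, aligned to GRCm38.p6 with STAR 2.6.1 and quantified with Cufflinks 2.2.1 over Ensembl release 95. The authors deposited FPKM, keeping a gene where any library reached 1 FPKM. The table also holds 6 columns of the authors' normalized log2 values, which were not used. Columns were assigned to groups from the heads of the study's supplementary gene table, and which labelled mouse a column belongs to within its group is not shown. Symbols came from GENCODE M21, matched for 12347 of 12353 genes.

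FPKM were quantile normalized over all genes, put on the scale log2(FPKM + 1) and compared in limma 3.58.1 (R 4.3.3, lmFit, then eBayes with a mean-variance trend, no covariate). Adjustment was by Benjamini-Hochberg over the 12353 genes, and the threshold was 0.05. Fold changes on this scale understate those of low genes. The study's own procedure permutes the 6 samples and was not repeated. FPKM are not counts, so no count test was run. Fragments per library were estimated from the steps of low FPKM values in genes with 1 transcript. The depth chosen was the one at which most values fell within 0.1 of a whole number (94.9% to 96.2%). At a depth fixed beforehand, 20.0% would do so by chance. For shares and sums of the deposited FPKM, the test was a two-sided exact permutation. The genes named are the 43, up to 4 genes with the smallest p of each other list, Rtn4 and markers a result needs. The 43 genes and all lists were chosen with earlier results of these data known. The alternatives were no trend, sample weights, no quantile normalization, 0.1 as pseudocount, only genes averaging 1 FPKM or more, and leaving out each library. The fit was tested on simulated data. Python 3.11.15, NumPy 2.4.6, pandas 2.3.3, SciPy 1.17.1 and matplotlib 3.10.9 were used.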

Additional observations from a re-analysis of the deposited data

How the results depend on the processing

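Rflnb, Xirp1, Ankrd23 and Tcap passed under all 5 other settings and without any 1 library. The number of the 43 genes that changed was 8, and 5 without the mean-variance trend, with 4 to 10 on leaving out 1 library. The number that fell was 6, with 3 to 6 on leaving out 1 library. It was also lower without the trend (Pdlim3 and Pdlim5 lost) and without quantile normalization (Pdlim3 lost). The number that rose was 2, then 1 without the trend and 4 with sample weights, with 1 to 4 on leaving out 1 library. Without quantile normalization, or with a pseudocount of 0.1, Lmod2 rose as well. The lowest numbers came without Sample 2 or Sample 3 (4 changed each, Fhl3, Nexn, Pdlim3 and Pdlim5 being lost), and 10 changed without Sample 4. Over all genes, 573 changed, with 188 to 434 on leaving out 1 library. Of the genes of neighboring processes 7 changed, all lower, and 3 without the trend, with 2 to 6 changed and 2 to 5 lower on leaving out 1 library. Without quantile normalization 7 changed, 5 of them lower.

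The log2 fold change of genes near 0 took the other sign without quantile normalization in Flna (0.0065), Actn3 (0.011), Myoz2 (0.020), Synpo2 (0.0063), Tmod1 (0.020) and Tmod4 (0.033), and with sample weights in Myoz2 (0.042). On leaving out 1 library it ranged from -0.13 to 0.098 in Flna, -0.018 to 0.059 in Pdlim1, -0.019 to 0.0088 in Ldb3, -0.011 to 0.062 in Actn1, -0.036 to 0.024 in Actn3, -0.068 to 0.079 in Myoz2, -0.055 to 0.044 in Synpo2, -0.014 to 0.036 in Capzb, -0.015 to 0.043 in Lmod3, -0.059 to 0.012 in Tmod1 and -0.044 to 0.036 in Tmod4. None of these 11 genes passed in any setting. Of the 24 family shares, 7 did not overlap between groups, 11 with quantile-normalized FPKM and 7 to 12 on leaving out 1 library, where smaller groups overlap less often by construction. Apart from these, the cause was not tested.

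No paired analysis was possible because no library column shows which replicate number of the labels it has. Whether the libraries come from separate litters or days is not given, so p-values cover only the spread between these 3 mice per group. In limma that spread is also drawn toward the spread of other genes. After quantile normalization the 3 Nogo+/+ values of Ldb3, Actn3 and Des were equal, so their SE rests on the Nogo-/- libraries and on other genes. Genes at a few FPKM, such as Ankrd1 and Actn1, rest on fewer fragments than the abundant genes, and estimated fragments cover counting error only.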
